A study of Mus musculus with 6 samples.

Results

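Interferon-stimulated genes are the antiviral and immune-signalling genes that cells switch on when they sense interferon. A set of 48 such genes, with the receptors and transcription factors that drive them, was taken by gene symbol from an RNA-seq table of 17025 genes. Of the 48 symbols, 47 matched a row. Mx2 was not analysed here. The table came from integrin α6-positive epidermal progenitor cells sorted from newborn mice at postnatal day 0. There were 3 libraries labelled control, from animals of genotype K14Cre,Ash2lF/+, and 3 labelled cKO (conditional knockout), from animals of genotype K14Cre,Ash2lF/F. Both groups thus carried the Cre driver and at least 1 floxed Ash2l allele. The keratin 14 promoter drives Cre mainly in basal keratinocytes. Ash2l encodes a core subunit of histone H3 lysine 4 methyltransferase complexes, and the series asks how it acts on epidermal differentiation, hair follicles and Notch signalling.

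The level of the targeted gene, Ash2l, was higher under the cKO label, and groups are named by their labels throughout. Ash2l averaged 15.5 ± 2.84 FPKM (fragments per kilobase of gene model, scaled to library size; SD, n = 3) in the libraries labelled control and 27.8 ± 4.24 FPKM (SD, n = 3) in those labelled cKO. The log2 difference was 0.81 (SE 0.19; limma adjusted p = 0.024), and a two-sided exact permutation test returned p = 0.1, which no split of 3 against 3 libraries can go under. That adjusted p rose to 0.0564 without control 1, 0.067 without control 3, 0.0828 without cKO 1 and 0.0808 without cKO 2. These values cover the whole gene model and were not read by exon. They therefore do not show whether the floxed part of Ash2l was lost, and the labels were not tested. The libraries held 31578875 to 36027550 fragments. The keratinocyte genes Krt5 and Krt14 were abundant in all 6, at 2250 to 4880 FPKM and 1680 to 3150 FPKM. Itga6, the sorted surface protein's gene, stood at 72.0 to 162 FPKM under the control label and 19.7 to 53.6 FPKM under the cKO label. The suprabasal keratin gene Krt10 stood at 1690 to 2490 and 18300 to 36900 FPKM. Of a list of 8 keratinocyte markers, limma called Itgb4 lower and Krt15, Krt1 and Krt10 higher under the cKO label. Those shares were 12.5% and 37.5%, beside 13.6% and 5.87% of all genes tested. In bulk samples such as these, fewer cells of a type and less RNA per cell cannot be told apart.

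Type I interferons bind a receptor made of IFNAR1 and IFNAR2, whose kinases activate STAT2 and other signal transducers. Together with IRF9, STAT2 is part of a factor that binds the interferon-stimulated response element (ISRE) in the promoters of target genes. Interferon gamma uses another receptor, of which IFNGR1 is a chain, and acts on its targets through gamma-activated sites (GAS). The targets include RNA sensors, proteins that block viral translation or entry, GTPases that attack vacuoles of pathogens, and the factors of the pathway itself, such as IRF7. Keratinocytes answer interferon strongly, and the skin is a tissue where this programme is known to run at a low level without infection.

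The letters that the interferon factors bind were present in the promoters of many of these genes. In RefSeq promoters of the build GRCm38.p6, the 250 bases before the start were searched on both strands for the ISRE core (GAAA, any 2 bases, GAAA, or on the other strand TTTC, any 2 bases, TTTC) and for the GAS core TTCNNNGAA, which is its own reverse complement. RefSeq gave a promoter for 38 of the 48 genes. The ISRE core was found in 16 of the 38 (42.1%), against 3.15% of the 13319 genes of the deposited table with a promoter. The GAS core was found in 8 of the 38 (21.1%), against 7.28%, and in 1 member promoter the matches to both motifs overlapped. A match is a run of letters and not a shown binding site. The following stretches, each 80 bases long and within the 250 bases searched, come from genes on which the expression results turn, with the ISRE core in capitals. The last, Igtp, carries the core and did not pass the expression test. Ifit3b was too low in abundance to be tested in the main fit.
Isg15: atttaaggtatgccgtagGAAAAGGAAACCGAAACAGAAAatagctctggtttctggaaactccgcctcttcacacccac
Bst2: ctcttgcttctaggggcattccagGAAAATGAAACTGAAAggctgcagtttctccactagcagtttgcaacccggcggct
Rsad2: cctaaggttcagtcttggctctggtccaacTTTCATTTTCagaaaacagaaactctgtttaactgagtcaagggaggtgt
Gbp2: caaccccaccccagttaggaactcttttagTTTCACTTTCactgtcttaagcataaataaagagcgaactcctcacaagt
Oas1a: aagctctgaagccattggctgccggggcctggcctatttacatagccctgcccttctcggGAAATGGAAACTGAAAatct
Ifit3: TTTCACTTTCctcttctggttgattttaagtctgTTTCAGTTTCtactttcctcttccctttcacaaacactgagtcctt
Ifit3b: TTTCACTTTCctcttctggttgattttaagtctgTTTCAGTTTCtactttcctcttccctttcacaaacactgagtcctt
Stat2: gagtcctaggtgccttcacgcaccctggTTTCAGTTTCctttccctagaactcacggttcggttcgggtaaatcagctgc
Igtp: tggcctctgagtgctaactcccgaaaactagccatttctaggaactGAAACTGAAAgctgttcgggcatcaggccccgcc

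These stretches lie at chr4:156200835-156200914 (Isg15, minus strand), chr8:71537547-71537626 (Bst2, minus strand), chr12:26456523-26456602 (Rsad2, minus strand), chr3:142620574-142620653 (Gbp2, plus strand), chr5:120907526-120907605 (Oas1a, minus strand), chr19:34583373-34583452 (Ifit3, plus strand), chr19:34607769-34607848 (Ifit3b, plus strand), chr10:128270248-128270327 (Stat2, plus strand) and chr11:58199476-58199555 (Igtp, plus strand), all on GRCm38.p6. Isg15 held 3 overlapping cores in its stretch, and Bst2, Oas1a, Ifit3 and Ifit3b held 2 each. The Ifit3 and Ifit3b stretches are the same in every letter.

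Interferon-stimulated genes stood lower in the libraries labelled cKO. Of the 47, 33 averaged 1 FPKM or more across the 6 libraries and were tested with limma on log2(FPKM + 1). Lower calls (adjusted p under 0.05 over all 11603 genes tested) were made for 19 of the 33, where 13.6% of all genes tested were called lower. No member was called higher by limma, where 5.87% of all genes were. The count of higher members was also 0 at an unadjusted p under 0.05 and 0 by limma-voom on fragments recovered from the FPKM values. The median difference of the 33 was -1.36 on the log2(FPKM + 1) scale, beside -0.17 for all genes tested. Scaling by the median of ratios moved the median of all genes to 0.03 and that of the 33 to -1.25, and the same 19 members were called. That scaling changed the split over all genes from 1576 lower and 681 higher to 1001 lower and 1044 higher.

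The filter favours genes that are high in either group, so the whole set was also read without it. Of the 19 called members, 15 averaged under 1 FPKM in the libraries labelled cKO and thus passed the filter through the other group. Among the 18 tested members with both group means at or above 1 FPKM, 4 (22.2%) were called lower: Stat2, Irf9, Bst2 and Ifitm3. Of all 10911 genes tested with both means at that level, 12.2% were called lower, and the difference between the shares was not tested. With no filter, limma called 22 of all 47 lower, where 7.87% of all 17025 genes were. It called 0 higher (0 at an unadjusted p under 0.05), where 3.22% of all genes were. The median of the 47 was then -0.68, beside -0.10 for all genes, and it was -0.65 with the 5 members at 0 in every library labelled cKO set to a floor of 3 fragments over the group. In 33 of the 47 every library labelled control lay above every library labelled cKO, a share of 70.2%, where 25.0% of all genes listed did so. In no member did every library labelled control lie below, where 10% of all genes listed did.

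**Figure D1:**
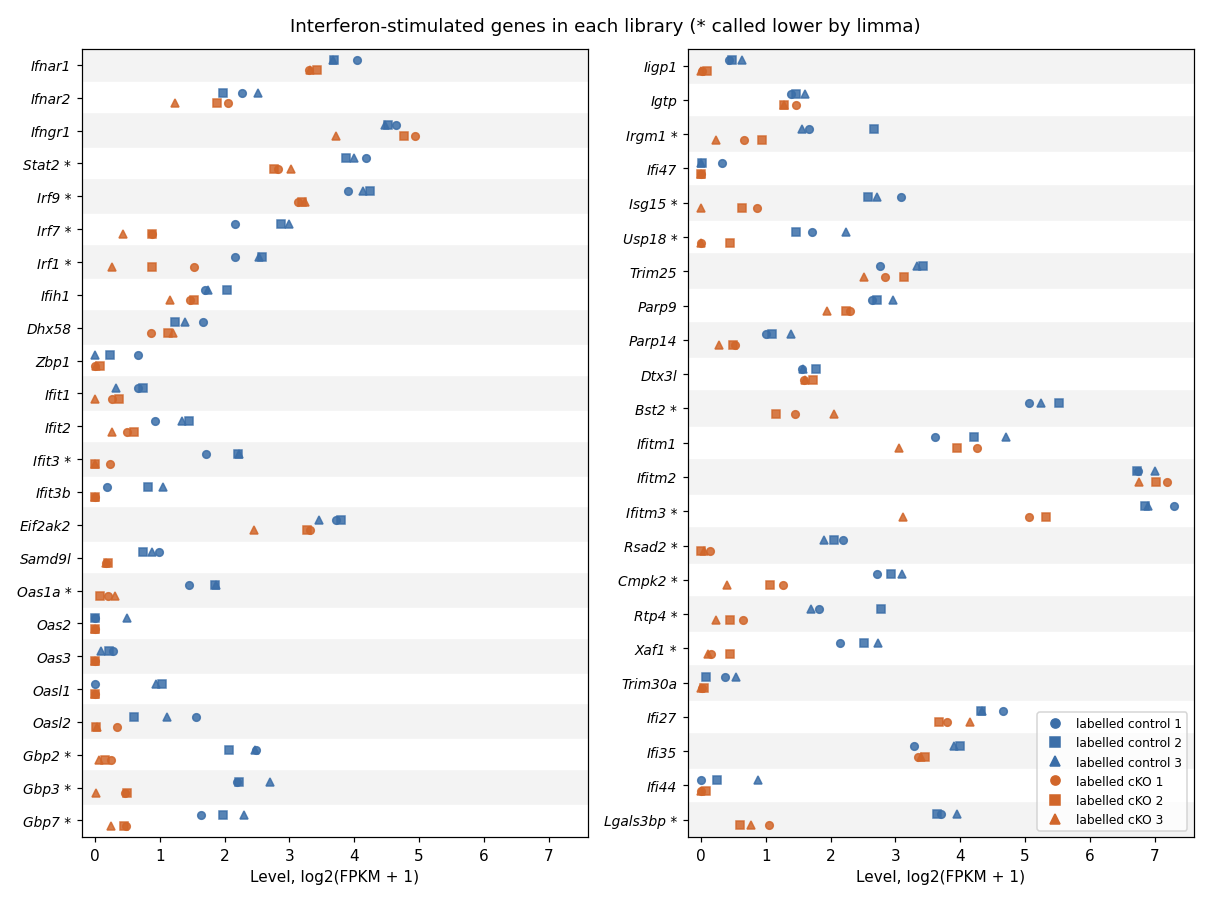
Level of each of the 47 genes in each library, as log2(FPKM + 1). Blue marks are libraries labelled control and orange marks those labelled cKO, with the symbol giving the library number, and an asterisk marks the 19 genes called lower by limma. Blue lies wholly to the right of orange in 33 of the 47 genes.

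None of the 3 receptor chains passed the test. In the sentences that follow, values are for the libraries labelled control 1, 2 and 3, then, after "against", for cKO 1, 2 and 3. Ifnar1, a chain of the type I receptor, stood at 15.5, 11.9 and 11.8 FPKM against 8.87, 9.74 and 8.94 FPKM. The groups did not overlap, but the difference of -0.46 (SE 0.17) did not pass the test (limma adjusted p = 0.0966). Ifnar2, the other chain, was lower in abundance, at 3.79, 2.91 and 4.69 FPKM against 3.14, 2.68 and 1.34 FPKM, and the groups overlapped (-0.53, SE 0.28, limma adjusted p = 0.221). Ifngr1, of the interferon gamma receptor, stood at 23.9, 21.9 and 21.3 FPKM under the control label. Its values under the cKO label lay on both sides of these, at 29.7 and 26.2 FPKM in cKO 1 and 2 and 12.2 FPKM in cKO 3. The fitted difference of Ifngr1 was -0.07 (SE 0.30, limma adjusted p = 0.892), and its sign turned to 0.31 without cKO 3.

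All 4 transcription factors of the set were called lower, where 13.6% of all genes tested were. Irf7 and Irf1 averaged under 1 FPKM under the cKO label and thus passed the filter through the other group. Stat2, a signal transducer of the type I receptor, stood at 17.2, 13.7 and 14.9 FPKM against 6.08, 5.79 and 7.17 FPKM (-1.14, SE 0.17, limma adjusted p = 0.0049). Irf9, which brings the complex to DNA, stood at 14.0, 18.0 and 16.6 FPKM against 7.81, 8.14 and 8.41 FPKM (-0.91, SE 0.16, limma adjusted p = 0.00912). Neither pair of groups overlapped, and both factors remained well above 1 FPKM in every library. Irf7, which amplifies type I interferon production, was at 3.47, 6.30 and 6.99 FPKM against 0.832, 0.837 and 0.343 FPKM. Its means differed 8.33-fold (-1.95, SE 0.29, limma adjusted p = 0.0045). Irf1, an early factor induced by interferon gamma and by inflammatory signals, was at 3.47, 4.99 and 4.76 FPKM against 1.89, 0.841 and 0.199 FPKM, with no overlap and a wide spread among the libraries labelled cKO. Irf1 was called (-1.53, SE 0.34, limma adjusted p = 0.0191), but not without control 2 (adjusted p = 0.0718), control 3 (0.0675) or cKO 2 (0.0551), nor with the replicate block (0.051).

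Neither of the RNA sensor genes of the set that were tested, Ifih1 and Dhx58, passed. Ifih1 encodes MDA5, a sensor of long double-stranded RNA, and stood at 2.25, 3.11 and 2.36 FPKM against 1.75, 1.88 and 1.23 FPKM. Dhx58 encodes LGP2, a regulator of MDA5 and RIG-I, and stood at 2.19, 1.35 and 1.62 FPKM against 0.814, 1.18 and 1.30 FPKM. In both genes the groups did not overlap, and neither difference passed the test (-0.45, SE 0.22, limma adjusted p = 0.189 for Ifih1, and -0.37, SE 0.23, limma adjusted p = 0.29 for Dhx58). Zbp1, a sensor of Z-form nucleic acid that can trigger necroptosis, lay under the filter, at 0.586, 0.168 and 0 FPKM against 0, 0.0543 and 0.0128 FPKM.

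Of the 4 membrane restriction factors, Bst2 and Ifitm3 were called lower and Ifitm1 and Ifitm2 were not. Bst2 encodes tetherin, which holds budding virus on the cell surface, and stood at 32.3, 44.8 and 37.0 FPKM against 1.73, 1.24 and 3.13 FPKM, the latter on 47, 34 and 91 fragments. The means of 38.0 ± 6.30 and 2.03 ± 0.98 FPKM (SD, n = 3 each) differed 18.7-fold (-3.72, SE 0.26, limma adjusted p = 0.000676), the largest log2 difference among the 33 members tested. Ifitm3, which restricts the entry of enveloped viruses through endosomes, stood at 157, 115 and 118 FPKM against 32.5, 39.0 and 7.71 FPKM. Its groups did not overlap and the library labelled cKO 3 lay far below the other two of its group (-2.51, SE 0.52, limma adjusted p = 0.0154). The call of Ifitm3 was lost without control 1 (adjusted p = 0.0575), control 2 (0.0518) or control 3 (0.0505). Its close relative Ifitm2 stood at 106, 105 and 128 FPKM against 145, 129 and 107 FPKM, with overlapping groups and a difference of 0.16 (SE 0.15, limma adjusted p = 0.493). Ifitm1 overlapped as well, at 11.2, 17.6 and 25.2 FPKM against 18.1, 14.4 and 7.32 FPKM (-0.43, SE 0.37, limma adjusted p = 0.445). Ifitm2 shares 48.5% of its 50-base stretches with transcripts of other genes in the GENCODE M21 annotation, which leaves its own level uncertain, while Ifitm3 shares 10%.

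**Figure D2:**
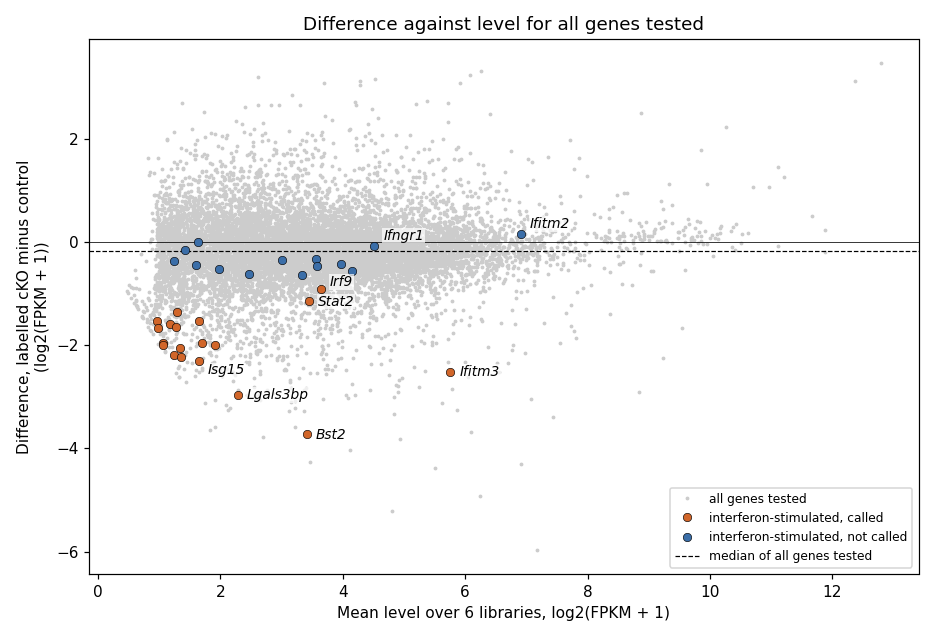
Difference between the groups (labelled cKO minus labelled control) against mean level over the 6 libraries, both on the log2(FPKM + 1) scale, for all 11603 genes tested (grey). The 19 called members (orange) lie between -3.72 and -0.91 and the 14 others tested (blue) between -0.65 and 0.16; the dashed line is the median of all genes, -0.17.

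Isg15 and Usp18, of the ISG15 system, fell from a few FPKM to nearly none. Isg15, a ubiquitin-like protein that is attached to other proteins, stood at 7.54, 4.96 and 5.57 FPKM against 0.826, 0.544 and 0 FPKM. The 0 in cKO 3 allows a level of up to 0.11 FPKM, which 3 fragments would give in that library (counting error only). The difference was -2.30 (SE 0.29, limma adjusted p = 0.00263). Usp18 encodes the protease that removes ISG15 and restrains the type I receptor. It stood at 2.29, 1.76 and 3.74 FPKM against 0, 0.365 and 0 FPKM (-1.66, SE 0.28, limma adjusted p = 0.00792), without overlap. Trim25, a ubiquitin ligase of the RIG-I pathway, overlapped between the groups at 5.79, 9.73 and 9.10 FPKM against 6.14, 7.73 and 4.75 FPKM (-0.35, SE 0.25, limma adjusted p = 0.361).

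Rsad2 and Cmpk2 are neighbouring genes whose products act on nucleotides. Rsad2 encodes viperin, which makes a chain-terminating nucleotide, and stood at 3.59, 3.17 and 2.73 FPKM (429, 397 and 339 fragments) against 0.102, 0 and 0.0293 FPKM (13, 0 and 4 fragments). Its means differed 72.2-fold, the largest ratio among the called members, and the log2(FPKM + 1) difference of -1.99 (SE 0.21, limma adjusted p = 0.00171) understates that ratio. Cmpk2, a mitochondrial nucleotide kinase, stood at 5.54, 6.60 and 7.56 FPKM against 1.41, 1.10 and 0.322 FPKM (-2.00, SE 0.27, limma adjusted p = 0.00362). Both genes were thus higher in every library labelled control than in any labelled cKO.

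The interferon-inducible GTPases were called lower in 4 of the 5 that were tested, where 13.6% of all genes tested were. All 4 (Gbp2, Gbp3, Gbp7 and Irgm1) averaged under 1 FPKM under the cKO label and thus passed the filter through the other group. The fifth, Igtp, averaged 1.81 and 1.54 FPKM and was not called. The guanylate-binding protein gene Gbp2 stood at 4.58, 3.18 and 4.51 FPKM against 0.182, 0.108 and 0.0452 FPKM (-2.18, SE 0.22, limma adjusted p = 0.00163). Gbp3 stood at 3.55, 3.67 and 5.48 FPKM against 0.378, 0.411 and 0.00883 FPKM (-2.04, SE 0.25, limma adjusted p = 0.00258). Gbp7 followed at 2.10, 2.93 and 3.94 FPKM against 0.391, 0.366 and 0.188 FPKM (-1.58, SE 0.25, limma adjusted p = 0.00579). No library of one group reached the other in these 3 genes. Among the immunity-related GTPases, which act on pathogen vacuoles and autophagy, Irgm1 stood at 2.19, 5.37 and 1.94 FPKM against 0.577, 0.925 and 0.173 FPKM (-1.36, SE 0.35, limma adjusted p = 0.0346). That call was lost without any 1 of the 6 libraries (adjusted p from 0.0518 to 0.081). Igtp stood at 1.63, 1.75 and 2.05 FPKM against 1.75, 1.44 and 1.44 FPKM, with overlapping groups (-0.14, SE 0.20, limma adjusted p = 0.655). Under the filter, Iigp1 stood at 0.347 to 0.554 FPKM against 0 to 0.0678 FPKM, and was called lower when no filter was applied (limma adjusted p = 0.0158). Ifi47 gave 16, 1 and 0 fragments under the control label and none under the other.

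Most IFIT and OAS genes of the set were close to the limit of detection. IFIT proteins bind foreign RNA ends and block their translation, and OAS enzymes make the messenger that activates the nuclease RNase L. Ifit3 stood at 2.28, 3.59 and 3.64 FPKM (193, 318 and 320 fragments) against 0.178, 0 and 0 FPKM (16, 0 and 0 fragments), and was called lower (-1.96, SE 0.24, limma adjusted p = 0.00247). Its near-copy Ifit3b stood at 0.142, 0.759 and 1.07 FPKM against 0 in all libraries labelled cKO. A floor of 3 fragments over the group makes Ifit3b at least 25.5-fold lower there (counting error only). Ifit3b was not called with no filter (limma adjusted p = 0.0925). Since 51.2% of the 50-base stretches of Ifit3 also occur in Ifit3b, fragments of this pair may be split between them. Ifit2 stood at 0.900, 1.73 and 1.53 FPKM against 0.409, 0.519 and 0.204 FPKM, without overlap, and was called only with no filter (limma adjusted p = 0.0439). Ifit1 overlapped, at 0.254 to 0.665 FPKM against 0 to 0.290 FPKM.

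Oas1a was the OAS gene of the set above the filter, at 1.72, 2.61 and 2.65 FPKM against 0.153, 0.0603 and 0.242 FPKM (-1.52, SE 0.23, limma adjusted p = 0.00524). It shares 57.6% of its 50-base stretches with Oas1g, so its level is uncertain in the same way. Oas3 gave 32, 26 and 10 fragments against none, at least 24.1-fold lower under the cKO label (counting error only). It was not called with no filter (limma adjusted p = 0.0882). Oasl1 was listed at 0 in control 1 and in all 3 libraries labelled cKO, with 1.04 and 0.916 FPKM in control 2 and 3. Oasl2 stood at 1.96, 0.523 and 1.15 FPKM against 0.267, 0.00941 and 0.0178 FPKM, without overlap (limma adjusted p = 0.06 with no filter). Oas2 was seen in 1 library, control 3, at 0.404 FPKM. Among OAS genes outside the set, Oas1f, named after its values were seen, went the other way, at 3.21, 9.40 and 4.59 FPKM against 30.3, 24.5 and 41.2 FPKM (2.37, SE 0.34, limma adjusted p = 0.00441). Oas1c did not pass (means 1.43 and 0.749 FPKM, limma adjusted p = 0.205). In all, 5 members were listed at 0 in every library labelled cKO (Ifit3b, Oas2, Oas3, Oasl1 and Ifi47) and 0 members in every library labelled control.

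Of the remaining translation and ADP-ribosylation genes, none passed the test with the filter. Eif2ak2 encodes PKR, the kinase that halts translation on double-stranded RNA. It stood at 12.2, 12.9 and 9.94 FPKM against 8.97, 8.61 and 4.47 FPKM, without overlap but short of the threshold (-0.65, SE 0.26, limma adjusted p = 0.123). Samd9l, an antiviral restriction factor, was low but tightly grouped at 0.984, 0.674 and 0.847 FPKM against 0.120, 0.145 and 0.127 FPKM (limma adjusted p = 0.0103 with no filter). Parp9 and Dtx3l, whose products form a complex, overlap on opposite strands in GENCODE M21, and fragments of the overlap cannot be told apart without strand. Parp9 stood at 5.24, 5.57 and 6.77 FPKM against 3.91, 3.70 and 2.87 FPKM, without overlap (-0.61, SE 0.20, limma adjusted p = 0.0673). Dtx3l stood at 1.96, 2.44 and 1.99 FPKM against 2.00, 2.30 and 2.06 FPKM, a ratio of means of 1.00 (0.00, SE 0.20, limma adjusted p = 0.995). Parp14, another ADP-ribosyltransferase, stood at 1.01, 1.14 and 1.61 FPKM against 0.441, 0.411 and 0.211 FPKM, and was called with no filter (limma adjusted p = 0.0305).

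Of the remaining members, Lgals3bp and Xaf1 differed most. Lgals3bp encodes a secreted glycoprotein that binds galectins and stood at 12.1, 11.5 and 14.4 FPKM against 1.07, 0.524 and 0.700 FPKM (-2.96, SE 0.21, limma adjusted p = 0.000676). Xaf1, a pro-apoptotic antagonist of XIAP, stood at 3.44, 4.73 and 5.67 FPKM against 0.116, 0.361 and 0.0809 FPKM (-2.23, SE 0.24, limma adjusted p = 0.00179). Rtp4, a receptor-transporting protein with antiviral activity, stood at 2.53, 5.87 and 2.25 FPKM against 0.566, 0.369 and 0.179 FPKM (-1.65, SE 0.33, limma adjusted p = 0.0131). All 3 kept the groups apart in every library. Ifi27 (24.4, 18.9 and 19.1 FPKM against 12.9, 11.7 and 16.8 FPKM) did not overlap and did not pass (-0.57, SE 0.19, limma adjusted p = 0.0704), though it was called without cKO 3 (adjusted p = 0.0285). Ifi35 overlapped (8.75, 14.9 and 14.0 FPKM against 9.21, 10 and 9.55 FPKM; limma adjusted p = 0.322). Trim30a (0.0606 to 0.458 against 0 to 0.0294 FPKM) and Ifi44 (0 to 0.842 against 0 to 0.0514 FPKM) lay under the filter.

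**Figure D3:**
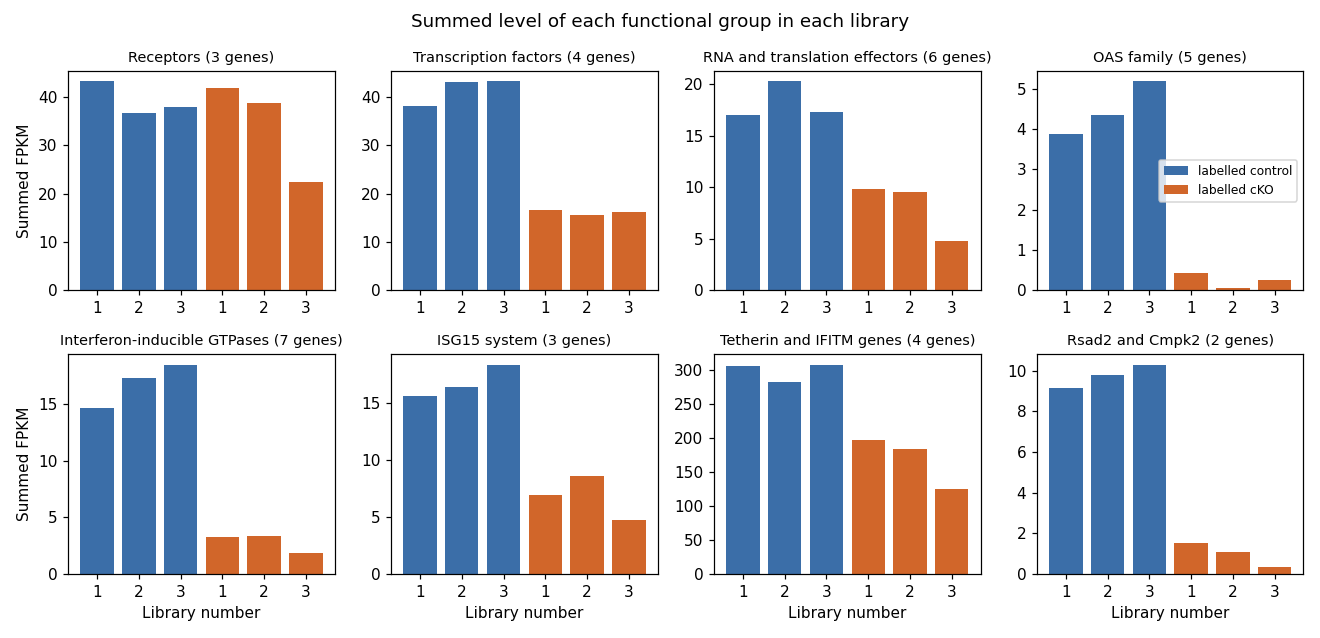
Summed FPKM of 8 functional groups of the genes in each library (bars start at 0 and each panel has its own scale); blue bars are libraries labelled control 1 to 3 and orange bars those labelled cKO 1 to 3. The OAS sums average 4.47 and 0.25 FPKM and the GTPase sums 16.8 and 2.82 FPKM. The receptor sums average 39.3 and 34.3 FPKM. Of these, Ifngr1 makes up 22.4 and 22.7 FPKM, Ifnar1 13.1 and 9.18 FPKM, and Ifnar2 3.8 and 2.39 FPKM.

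Read by library, the set was even among the libraries labelled control and less so among those labelled cKO. Summed levels were 513, 500 and 530 FPKM in control 1, 2 and 3 and 310, 293 and 211 FPKM in cKO 1, 2 and 3. Without Ifitm1, Ifitm2 and Ifitm3, which carry much of the sum, they were 239, 263 and 259 FPKM against 115, 111 and 88.7 FPKM. The median member stood at 2.53, 3.18 and 3.74 FPKM and at 0.577, 0.524 and 0.204 FPKM. Members listed at 0 numbered 3, 1 and 2 against 8, 7 and 12, whereas 11.8 to 14.4% of all genes were listed at 0 under the control label and 10.4 to 11.5% under the cKO label. The library labelled cKO 3 was the lowest of its group in 24 of the 47 members, and it was so in 60.1% of all genes tested. Control 1 was the lowest of its group in 23 members, and in 41.3% of all genes tested.

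Promoter letters were set beside the calls as a description. The ISRE core was present in 10 of the 17 called members with a RefSeq promoter (58.8%), in 2 of the 11 tested and not called (18.2%; Igtp and Ifitm2), and in 4 of the 10 under the filter (40.0%). The GAS core was present in 4 of the 17 (23.5%), 3 of the 11 (27.3%) and 1 of the 10 (10%). These shares were not tested against each other, and called members such as Irf7, Cmpk2, Lgals3bp and Xaf1 held no ISRE core in the 250 bases searched. In the gene ontology annotation that the authors deposited with the table, 29 of the 47 carry the term defense response to virus (155 genes in all), 26 innate immune response (381) and 10 cellular response to interferon-beta (37).

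Other genes of the pathway, from lists of names that are not members, were read in the same fit. Of 10 interferon genes, 3 matched, and each was seen in a single library: Ifnk, the keratinocyte interferon kappa, at 0.850 FPKM in control 1, Ifnz at 0.217 FPKM in control 1 and Ifne at 0.265 FPKM in cKO 2. Of 15 receptor, kinase, STAT and feedback genes, 14 were tested, with 2 lower and 2 higher (14.3% each, beside 13.6% lower and 5.87% higher over all genes tested), and a median of -0.04. Limma-voom called 1 lower and 1 higher. Socs3, a feedback inhibitor of cytokine signalling, was lower, at 21.3, 28.1 and 28.7 FPKM against 5.84, 6.31 and 0.945 FPKM (-2.54, SE 0.48, limma adjusted p = 0.011). Il10rb, shared by the interferon lambda and interleukin-10 receptors, was lower too (means 8.69 and 3.80 FPKM, limma adjusted p = 0.039). Ifnlr1, the other chain of the interferon lambda receptor, was higher, at 1.86, 2.62 and 2.02 FPKM against 7.12, 7.09 and 5.22 FPKM (1.24, SE 0.21, limma adjusted p = 0.00785). Socs1, an inhibitor of JAK kinases, was higher as well, at 0.236, 0 and 0.979 FPKM against 1.86, 2.10 and 2.24 FPKM (1.19, SE 0.29, limma adjusted p = 0.0291).

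Among 21 matched sensing and induction genes, 17 were tested, with 2 lower and 2 higher (11.8% each, the lower share near that of all genes) and a median of -0.18. Limma-voom called 2 lower and 1 higher. Ddx58, which encodes the RNA sensor RIG-I, stood at 7.01, 6.96 and 7.09 FPKM against 2.78, 2.93 and 1.32 FPKM (-1.30, SE 0.25, limma adjusted p = 0.0113). Sting1, the adaptor of cytosolic DNA sensing, stood at 5.12, 5.52 and 3.07 FPKM against 1.39, 1.23 and 0.657 FPKM (-1.40, SE 0.27, limma adjusted p = 0.0118). Irf5, a factor downstream of Toll-like receptors, was higher, at 0.434, 0.546 and 0.399 FPKM against 3.57, 3.55 and 2.96 FPKM (1.58, SE 0.20, limma adjusted p = 0.00305). The Toll-like receptor adaptor gene Myd88 was higher too (means 13.1 and 20.4 FPKM, limma adjusted p = 0.0353). Of those that did not pass, the most abundant were Irf3 (means 37.6 and 48.4 FPKM, limma adjusted p = 0.114), Rnaseh2c, Tbk1 and Rnaseh2a.

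Further interferon-stimulated genes outside the set were lower in 11 of 31 tested (35.5%, beside 13.6% of all genes tested). They were higher in 1 (3.23%, beside 5.87%), and the median was -0.74. Of the 11, 7 averaged under 1 FPKM in the libraries labelled cKO and thus passed the filter through the other group. Limma-voom gave the same counts. The 6 with the smallest adjusted p were Lgals9 (means 47.7 and 5.08 FPKM), the chemokine gene Cxcl10 (4.13 and 0.0801 FPKM), Ube2l6, the ISG15-conjugating enzyme (6.30 and 0.318 FPKM), Ifi202b (79.6 and 10.5 FPKM), Helz2 (2.80 and 0.564 FPKM) and Rnf213 (3.62 and 0.706 FPKM). The 1 higher gene, named after its values were seen, was Tor3a (4.19 and 14.9 FPKM, limma adjusted p = 0.0092). Class I presentation genes, many of which interferon gamma induces, had 4 lower (26.7%) and 2 higher (13.3%) of 15 tested. Over all genes tested the shares were 13.6% and 5.87%. The median of the 15 was -0.23, and limma-voom called 2 lower and 2 higher. Of the 4 lower, Nlrc5 and Psmb8 averaged under 1 FPKM in the libraries labelled cKO and thus passed the filter through the other group. B2m, the class I light chain, stood at 216, 260 and 225 FPKM against 62.6, 48.2 and 29.8 FPKM (-2.35, SE 0.25, limma adjusted p = 0.00169). The class I transactivator gene Nlrc5 (2.03 and 0.0421 FPKM), Psmb8 (3.12 and 0.919 FPKM) and H2-K1 (24.1 and 16 FPKM) were lower, and Psme2 (33.3 and 59.1 FPKM) and Tapbpl (1.77 and 5.46 FPKM) higher.

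The authors' own annotation gives a list that was not drawn up by hand. Of the 37 genes it ties to cellular response to interferon-beta, 27 are not members and 13 of those were tested. Limma called 5 lower (38.5%; 4 by limma-voom): Htra2, Ifi202b, Ddx41, Sting1 and Ifi204, the second and the last 2 being also on the lists above. It called 0 higher (0 at an unadjusted p under 0.05, and 0 by limma-voom), and the median was -0.57. The choice of this list was made after the table was seen. Of the 126 non-members tied to defense response to virus, 90 were tested, with 16 lower (17.8%) and 7 higher (7.78%), shares near the 13.6% and 5.87% of all genes tested, and a median of -0.27.

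Markers of other cell types in the sort were read beside these results. Melanocyte markers were also lower under the cKO label: all 9 were called lower, where 13.6% of all genes tested were. Their summed level was 2870 to 3290 FPKM in the libraries labelled control and 174 to 373 FPKM in those labelled cKO. Schwann cell markers summed to 120 to 151 and 71.1 to 94.2 FPKM, with Foxd3 called lower among 4 tested. Fibroblast markers summed to 108 to 370 and 151 to 465 FPKM, and the groups overlapped in each of the 8 markers. Endothelial markers summed to 6.60 to 9.24 and 3.11 to 9.55 FPKM and erythroid markers to 3.29 to 48.8 and 7.43 to 45.6 FPKM. Plasmacytoid dendritic cell markers summed to 13.5 to 23.2 and 3.71 to 9.31 FPKM, with Il3ra lower. Mast cell markers summed to 134 to 164 and 8.41 to 29.7 FPKM, and the 1 called, Kit, is also a melanocyte gene. The part of these cell types in the differences above was not tested. Among immune cell markers, Ptprc, the pan-leukocyte gene, reached 0.173 FPKM at most, the T cell gene Cd3e 0.216 FPKM and the plasmacytoid dendritic cell gene Siglech 0.0419 FPKM. Some other immune markers reached the levels of many interferon-stimulated genes, several of them in single libraries. Cd3g reached 1.24 and Cd7 1.39 FPKM in control 2, H2-Ab1 2.68 FPKM in control 3 and Csf1r 1.04 FPKM in cKO 1. Cd74 stood at 0.895, 2.10 and 2.63 FPKM against 1.79, 0.664 and 0.255 FPKM. The macrophage marker Cd68 was present in every library, at 13.6, 9.39 and 7.7 FPKM against 6.99, 6.88 and 4.96 FPKM. Its groups did not overlap, and it did not pass the test (limma adjusted p = 0.118). Of the 3 genes of the Langerhans cell and macrophage list that were tested, 0 were called. The sums of the T cell list (14.7 to 19.8 and 7.75 to 25.5 FPKM) rest mainly on Thy1, and those of the Langerhans cell and macrophage list (73.2 to 95.6 and 79.9 to 111 FPKM) mainly on Epcam, both of which other skin cells express.

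**Figure D4:**
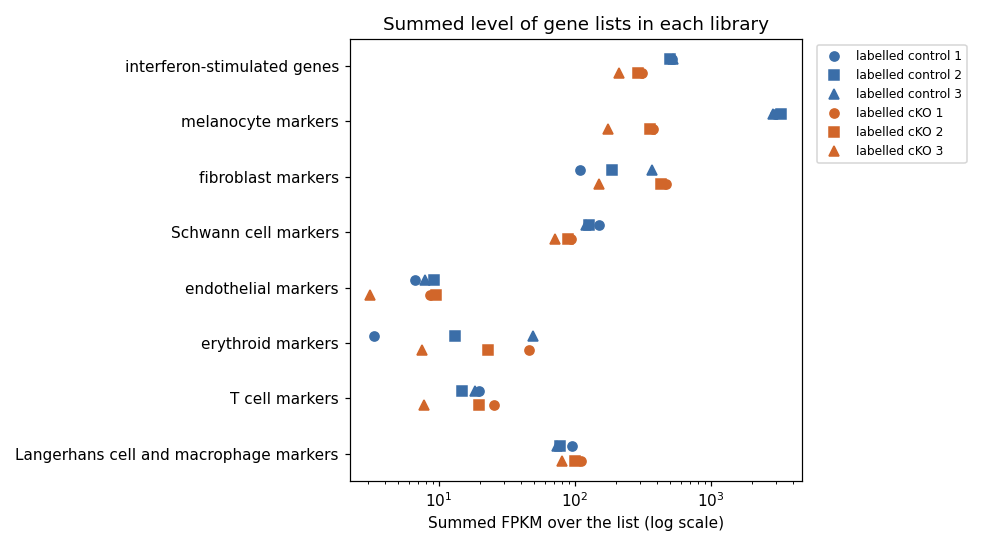
Summed FPKM (log axis) of the 47 interferon-stimulated genes and of 7 lists of cell type markers in each library; blue marks are libraries labelled control, orange marks those labelled cKO. The interferon set falls from 500 to 530 FPKM to 211 to 310 FPKM and the melanocyte markers from 2870 to 3290 FPKM to 174 to 373 FPKM, while the fibroblast, erythroid and T cell sums overlap between the groups.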

How the data were processed

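RNA-seq was deposited as 1 table of 17025 genes in 6 libraries. The authors deposited FPKM values, and per the submitters' processing notes used fastp, HISAT2, HTSeq and the build GRCm39, without versions. For annotation release, gene filter and strand setting the sources used here give nothing, so overlapping and near-identical genes are uncertain. Low FPKM values were whole multiples of 1 fragment, which gave fragments (tolerance 1e-09) for 17024 genes and totals of 31578875 to 36027550 per library. Fragments of genes whose recovered length was far from GENCODE M21 are not printed.

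The 11603 genes averaging 1 FPKM or more were fitted by limma 3.58.1 (R 4.3.3) on the log2(FPKM + 1) scale, with a term for group alone, a trended prior variance, Benjamini-Hochberg adjustment over all genes, and calls under 0.05. The fit was also run on simulated counts with the same dispersion for all genes, a simpler setting than these data. No conclusion is drawn from that run. Differences are labelled cKO minus labelled control. Nothing states that libraries came from separate animals, so the spread behind each p-value may be technical. Group and replicate came from the labels. Members, lists and the rule for names were chosen with earlier results of these data known, and the voom alternative after seeing the data. The rule names all members, Ash2l, called pathway genes, and the 6 smallest adjusted p of 2 further lists. Of the names on the lists of other genes, those without a row were not analysed here. Promoters were from RefSeq (GRCm38.p6). That build differs from the authors', and no coordinates were carried between them. Figures used matplotlib 3.10.9.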

Additional observations from a re-analysis of the deposited data

How the results depend on the processing

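Of the 19 lower calls among the members, 16 held at the 0.05 threshold in every alternative fit in which the gene was tested, and Irf1, Irgm1 and Ifitm3 lost theirs in at least 1. The count stayed between 14 and 24 in all alternatives but the filter at 5 FPKM, where 13 members were tested and 5 were lower; that filter leaves fewer genes. It was 15 at a threshold of 0.01, where those 3 and Rtp4 were lost, and 22 at 0.1. The further interferon-stimulated genes had 11 lower of 31, and 17 of 69 with no filter, 4 of 12 with the filter at 5 FPKM and 20 of 31 with array weights, where 13.6%, 7.87%, 13.8% and 24.4% of all genes were lower. The median difference of the members was -2.36 with a pseudocount of 0.1, -0.71 with the filter at 0.1 FPKM, -0.68 with no filter, -0.57 with the filter at 5 FPKM, -1.15 with quantile normalization and -2.61 with limma-voom, and -1.50 to -1.11 with 1 library left out. Ifngr1 turned to 0.14 with the median of ratios, 0.13 with quantiles, 0.30 with array weights and, with 1 library left out, ranged from -0.303 to 0.31 (0.306 without cKO 3). Dtx3l turned to 0.15 with the median of ratios, 0.22 with quantiles, and ranged from -0.042 to 0.068 with 1 library left out (0.068 without control 2, 0.025 without cKO 1 and 0.011 without cKO 3), and Igtp turned to 0.075 with quantiles. None of these 3 was called. The causes were not tested.

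Libraries with the same replicate number in their titles had correlations of deviations of -0.31, 0.08 and -0.26. With 3 libraries in each group, these values cannot decide whether same-numbered libraries were paired. With the replicate block 18 members were lower, Irf1 losing its call (adjusted p = 0.051), and Ash2l stood at 0.81 with an adjusted p of 0.0613. Leaving out 1 library gave Ash2l 0.67 to 0.94. With array weights Parp9, Ifi27 and Ifi35 were called too. Counts of fragments limit the members under 1 FPKM, where a fold rests on few fragments.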
